A study of Mus musculus with 59 samples.

Results

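Transcripts of 10 immediate early genes were followed through every group of a study of the kinase Tbk1 in cultured microglia, the resident macrophages of the brain. The genes were chosen by name, out of 32070 genes in each deposited table, and all 10 had a row in both tables. They were the AP-1 subunits Fos, Fosb and Junb, the zinc finger transcription factors Egr1, Egr2 and Egr3, the Kruppel-like factor Klf6, the nuclear protein Ier2, the survival and feedback protein Ier3, and Zfp36, also known as tristetraprolin. Microglia were grown from newborn mouse pups of 3 genotypes, all carrying at least 1 floxed Tbk1 allele. WT cultures were Tbk1fl/fl and Cx3CR1-Cre-, HET cultures were Tbk1fl/+ and Cx3CR1-Cre+, and KO cultures were Tbk1fl/fl and Cx3CR1-Cre+. The Cre recombinase is driven by Cx3CR1, a gene of microglia and other myeloid cells. WT lacked Cre, so a difference of KO from WT holds the effect of Cre as well, whereas KO against HET holds Cre constant. After 16 h of plating, cells were left untreated (UT) or received 1 of 3 stimuli for 24 h. These were 100 ng/mL of lipopolysaccharide (LPS, a component of bacterial walls), 20 ng/mL of interleukin-4 (IL4, a cytokine of type 2 immunity) and the viral RNA mimic poly(I:C) (pIC), whose dose no source used here gives. The 12 groups held 5 libraries each, apart from 4 for untreated WT, which makes 59, and the labels describe the replicates as independent cultures.

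The values are TPM, which scale each gene by its length and each library to a common total, so levels of different genes can be compared per length and the depth of a library is unknown. UT, LPS and IL4 libraries (44) shared a table and the pIC libraries (15) had another, and no test was made between the tables. Libraries held 12428 to 14581 genes at 1 TPM or more. Tbk1 was lower in every KO library than in every WT library of the same treatment, at 16.5 to 27.8 TPM against 45.1 to 53.8 untreated and 12.1 to 25.8 against 81.9 to 101 under LPS. The summed TPM of 8 microglia markers was 7000 to 9137 in untreated libraries and that of 8 oligodendrocyte lineage markers 482 to 2189, so the cultures were not of 1 cell type. In bulk libraries, fewer cells of a type and less RNA per cell cannot be told apart. Differences below are of log2(TPM + 1) with the standard error from limma, and a difference was called at an adjusted p under 0.05 (Benjamini-Hochberg over all genes tested). Means are given with the SD over libraries.

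Immediate early genes are switched on within minutes of a stimulus without new protein synthesis, mainly by factors that are already present: serum response factor with its ternary complex partners, CREB and NF-kB, downstream of the MAP kinases. Their mRNAs are short-lived, and their products include both transcription factors that pass the signal on and inhibitors that end it. In macrophages, Zfp36 binds AU-rich elements in cytokine mRNAs and marks them for decay, Ier3 is a target of NF-kB, and Egr2 is known as a gene of the IL4 response. Samples taken at 24 h show the level that is held long after the first burst, not the burst itself.

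Promoter sequence of the members with distinct patterns is shown because it carries the classical elements of this gene class. The RefSeq windows (GRCm38.p6, 250 bases before to 50 after a start site) covered 7 of the 10 members. The capitals mark every match, on either strand, to the motifs searched: the CArG box of serum response factor and the kappaB site of NF-kB, both by name, the Egr site GCGNGGGCG, the interferon-gamma-activated sequence TTCNNNGAA, AP-1 TGANTCA and the cAMP response element TGACGTCA. Each stretch is written 5′ to 3′ on the strand of its gene. In that build Zfp36 (Entrez 22695) lies at chr7:28376784-28379228, Ier3 (15937) at chr17:35821713-35822911 and Egr2 (13654) at chr10:67534469-67542188. For Zfp36 (chr7:28379229-28379478, minus strand) and Ier3 (chr17:35821463-35821712, plus strand) the 250 bases before the start site are given. For Egr2 (chr10:67537787-67537816, plus strand) the 30 bases around its CArG box are given.
Zfp36: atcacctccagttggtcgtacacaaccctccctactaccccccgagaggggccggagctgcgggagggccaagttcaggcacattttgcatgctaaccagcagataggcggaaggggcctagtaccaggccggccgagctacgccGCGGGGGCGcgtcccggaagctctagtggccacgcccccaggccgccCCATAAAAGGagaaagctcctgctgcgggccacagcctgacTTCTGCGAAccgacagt
Ier3: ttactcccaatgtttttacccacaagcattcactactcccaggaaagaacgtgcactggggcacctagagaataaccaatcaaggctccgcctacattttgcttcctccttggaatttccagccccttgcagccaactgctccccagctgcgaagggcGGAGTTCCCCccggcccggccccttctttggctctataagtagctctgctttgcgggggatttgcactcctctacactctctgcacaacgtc
Egr2: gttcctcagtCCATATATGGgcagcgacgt

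In these stretches the capitals of Zfp36 are an Egr site, a CArG box and an interferon-gamma-activated sequence that begin at -105, -58 and -17 from the start site. The capitals of Ier3 are a kappaB match that begins at -92, and those of Egr2 are a CArG box that begins at -72 from 1 of its start sites. A CArG box was present in 2 of the 7 members with a window (Zfp36 and Egr2) and in 1.81% of the 27025 genes in the table. A kappaB match was present in 4 of the 7 (Fos, Fosb, Egr2 and Ier3) and in 9.55% of genes, and an Egr site in 2 (Fosb and Zfp36) and in 6.27%. The interferon-gamma-activated sequence was present in 1 (Zfp36) and in 9.55%. Egr2 has 5 windows, for as many start sites, and 4 of them hold a CArG box. Windows 3, 4 and 5 overlap and share the box printed above, at -72, -73 and -133 from their start sites. Window 2 holds another CArG box. A gene counts once, however many windows it has. The AP-1, cAMP and interferon response elements were matched in 0 of the 7, against 8.97%, 2.03% and 0.944% of genes. No motif searched was matched in the windows of Junb and Klf6. The matches describe letters in a window and show no binding.

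In untreated WT cultures the transcripts spanned a wide range per length. Klf6 was at 117 ± 12.7 TPM (n = 4), Junb at 87.0 ± 10.3, Zfp36 at 77.4 ± 4.47, Fos at 49.1 ± 13.6, Ier2 at 25.0 ± 1.85, Egr1 at 19.1 ± 3.16, Ier3 at 12.4 ± 2.65 and Egr2 at 3.05 ± 1.01. Junb (79.9 to 102) and Zfp36 (71.0 to 81.4) overlapped between libraries, as did Ier2 (22.3 to 26.7) and Egr1 (15.8 to 23.0), so the order within these pairs is not firm. Egr3 was at 1.53 ± 0.98 TPM and Fosb at 0.346 ± 0.0458. Fosb, which forms AP-1 dimers as Fos does, stayed at or below 0.752 TPM in all 59 libraries and passed no filter, so it was not tested. Egr3 was tested in the table of UT, LPS and IL4 libraries, which it entered through the untreated and IL4 libraries, and not in the pIC table, where its highest value was 0.519 TPM. The 10 members thus gave 9 tested genes in the main table and 8 in the pIC table. Genotype made no called difference to any of the 9 in untreated cultures. KO against WT called 0 members against 0.0314% of all genes (0.0126% higher and 0.0189% lower), KO against HET 0 against 0.00629% and HET against WT 0 against 0.0126%, and 0 members passed an unadjusted p of 0.05 in any of the 3. The 95% intervals of KO against WT reached from -0.75 to 0.59 for Fos and from -0.46 to 0.98 for Egr2, the widest of the 9, and from -0.07 to 0.32 for Junb, the narrowest.

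**Figure D1:**
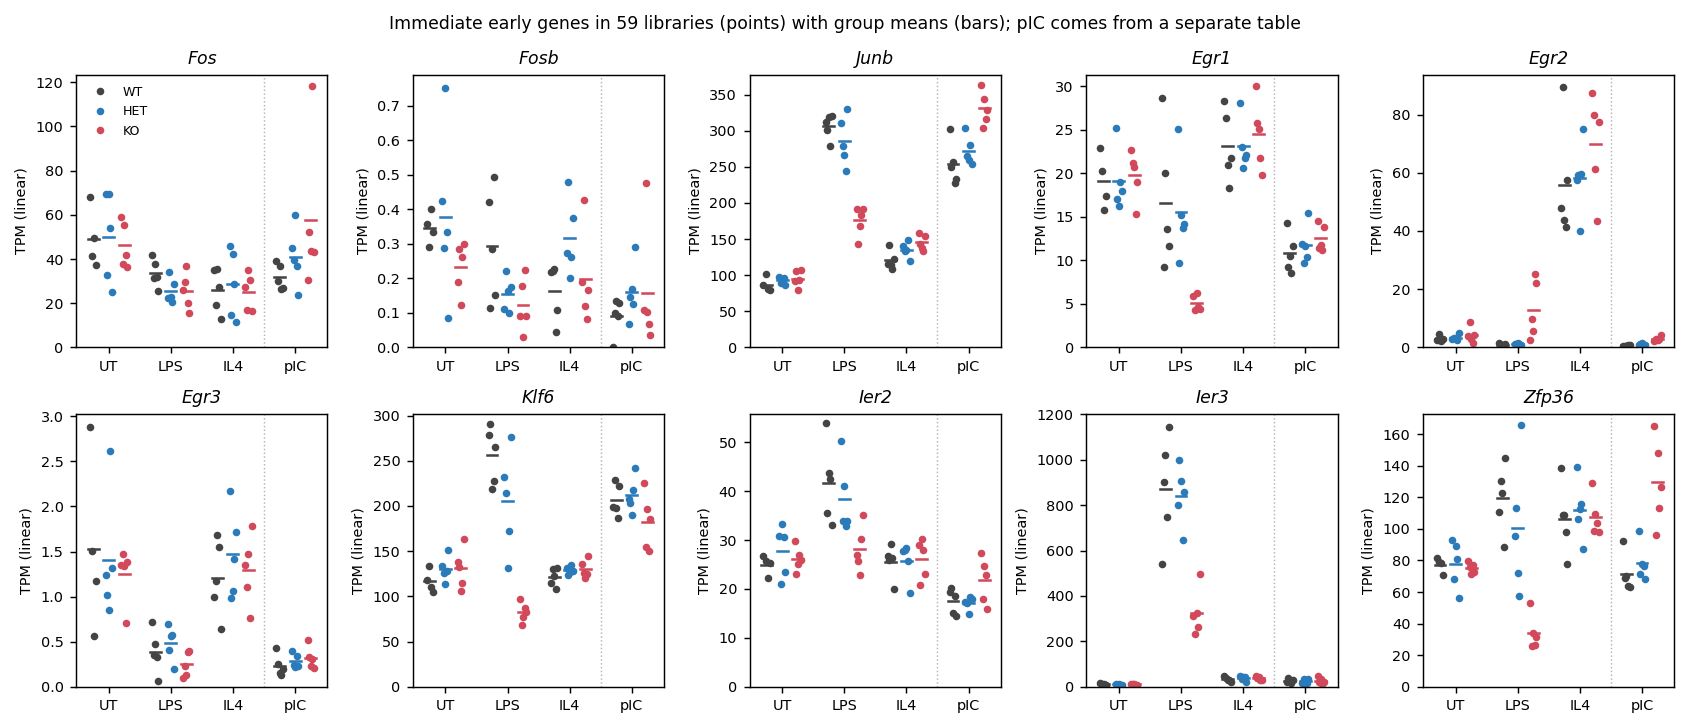
TPM of each of the 10 immediate early genes (linear axis, 1 panel a gene) in each of the 59 libraries, by treatment and genotype; points are libraries, bars are group means, and the pIC libraries come from a separate table. Under LPS the KO points of Egr1, Klf6, Ier3, Zfp36 and Junb lie below all WT points and those of Egr2 above them, and under IL4 Egr2 is high in all 3 genotypes.

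LPS for 24 h left a mixed picture in WT and HET cultures: Ier3, Junb, Klf6 and Ier2 were raised, and Egr1 was not called. Egr2 was lowered in the main fit, a fall not called under median-of-ratios scaling or quantile normalization. Ier3, which limits cell death and feeds back on NF-kB signalling, went from 9.79 to 15.6 TPM in the untreated WT libraries to 541, 902, 1023, 749 and 1146 TPM. Every LPS library of WT was far above every untreated one, and the difference of means was 70.5-fold (log2 difference 6.00 ± 0.25, adjusted p = 5.41e-23). In HET the 5 LPS values were 803, 997, 905, 645 and 858 TPM (6.29 ± 0.23). Ier3 thus became the most abundant of the 10 per length under LPS, from the seventh place untreated.

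Junb, the AP-1 subunit that often restrains Jun, was at 85.8, 102, 80.5 and 79.9 TPM in untreated WT and at 312, 301, 319, 279 and 321 with LPS. The groups did not overlap (1.81 ± 0.09, adjusted p = 1.04e-19), and the HET rise was 1.61 ± 0.09. Klf6, a zinc finger factor of inflammatory macrophages, was at 105 to 134 TPM in untreated WT and at 278, 291, 218, 228 and 265 with LPS (1.12 ± 0.13), and in HET it rose by 0.61 ± 0.13. Ier2 went from 25.0 ± 1.85 to 41.7 ± 8.12 TPM in WT (0.70 ± 0.15) and rose less in HET (0.45 ± 0.14), a difference between genotypes that was not tested. Zfp36 rose in WT, from 71.0 to 81.4 TPM untreated to 111, 130, 122, 88.6 and 145 with LPS (0.60 ± 0.20, adjusted p = 0.00739). In HET its 5 LPS values spread from 57.5 to 166 TPM around the untreated mean of 77.5, and the difference of 0.30 ± 0.19 was not called. Zfp36 in HET was called without HET LPS replicate 4, at 0.48 (adjusted p = 0.0203). It was also called after quantile normalization (0.40, adjusted p = 0.0491) or scaling by median of ratios (0.92).

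The Egr family and Fos went the other way or did not pass. Egr2 was at 2.39, 4.51, 2.35 and 2.94 TPM in untreated WT and at 1.44, 0.676, 0.951, 0.823 and 1.17 with LPS, without overlap (-0.99 ± 0.36, adjusted p = 0.0124), and it fell by 0.99 ± 0.34 on the log2 scale in HET. Without untreated WT replicate 2 the WT fall of Egr2 was not called (adjusted p = 0.0515). Egr3 fell by 0.81 ± 0.20 in WT and by 0.66 ± 0.19 in HET. It reached 1 TPM in 0 LPS libraries of each genotype. Because Egr3 entered the test through the untreated and IL4 libraries, its falls with LPS are not counted as support. Fos, the AP-1 partner that is often the first gene to respond to a stimulus, was at 37.3 to 68.0 TPM in untreated WT and 25.4 to 41.6 with LPS, with overlap and a difference of -0.52 ± 0.33 that was not called. The fall of Fos in HET was called (-0.85 ± 0.31, adjusted p = 0.0136) and was not called without untreated HET replicate 3 (-0.71, adjusted p = 0.0504). Egr1 did not pass in WT (-0.28 ± 0.21, adjusted p = 0.222) or HET (-0.32 ± 0.20). Its WT values under LPS were spread widely, at 28.7, 9.27, 20.1, 13.6 and 11.6 TPM, and without WT LPS replicate 1 the difference of Egr1 was -0.50 and was called (adjusted p = 0.0214). The same held in HET without HET LPS replicate 1 (-0.50, adjusted p = 0.0205). The sign of Egr1 turned with the scaling, to 0.36 by median of ratios and 0.28 after quantile normalization in WT and to 0.27 and 0.18 in HET, none of them called, so these data give no direction for Egr1 in WT or HET. Fos in WT likewise went to 0.15 by median of ratios.

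In all, 5 of the 9 members tested rose and 2 fell in WT with LPS, and 4 rose and 3 fell in HET, with Egr3 among the falls of both. Without Egr3 the falls are Egr2 in WT, and Egr2 and Fos in HET. Of all genes tested, 75.8% were called in WT (13.9% higher and 61.9% lower) and 74.0% in HET (14.3% higher and 59.7% lower), so being called is common here. The members' median difference was 0.60 in WT and 0.30 in HET, beside -0.59 and -0.51 for all genes. The negative median of all genes depends on the scaling: with median-of-ratios scaling it was -0.06 in WT and with quantile normalization -0.13, and the share of calls that were higher went from 18.3% to 49.4% and 41.2%. In HET that share went from 19.3% to 49.7% and 41.9%, and in KO from 18.8% to 50.2% and 42.4%. The rises of Ier3, Junb, Klf6 and Ier2 in WT and HET were called under both of those scalings. Several were larger by median of ratios, with Ier2 at 1.36 in WT and 1.06 in HET, Klf6 at 1.80 and 1.23, and Zfp36 in WT at 1.28. The falls of Egr2 were not called under either (WT -0.58, adjusted p = 0.176, and -0.36, adjusted p = 0.392), that of Fos in HET was not called under either, and those of Egr3 were not called under quantile normalization (WT -0.34, HET -0.24). Cell type markers shifted too. In WT, 8 microglia markers summed to 7106 to 8116 TPM untreated and 2108 to 2885 with LPS. Of these, 6 were called lower and 2 higher. For 8 oligodendrocyte lineage markers the sums were 884 to 2189 and 99.1 to 692, with 7 lower and 0 higher. Of 8 neuron markers, 6 were lower and 0 higher. The part of the cell mix in the members' differences with LPS was not tested.

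**Figure D2:**
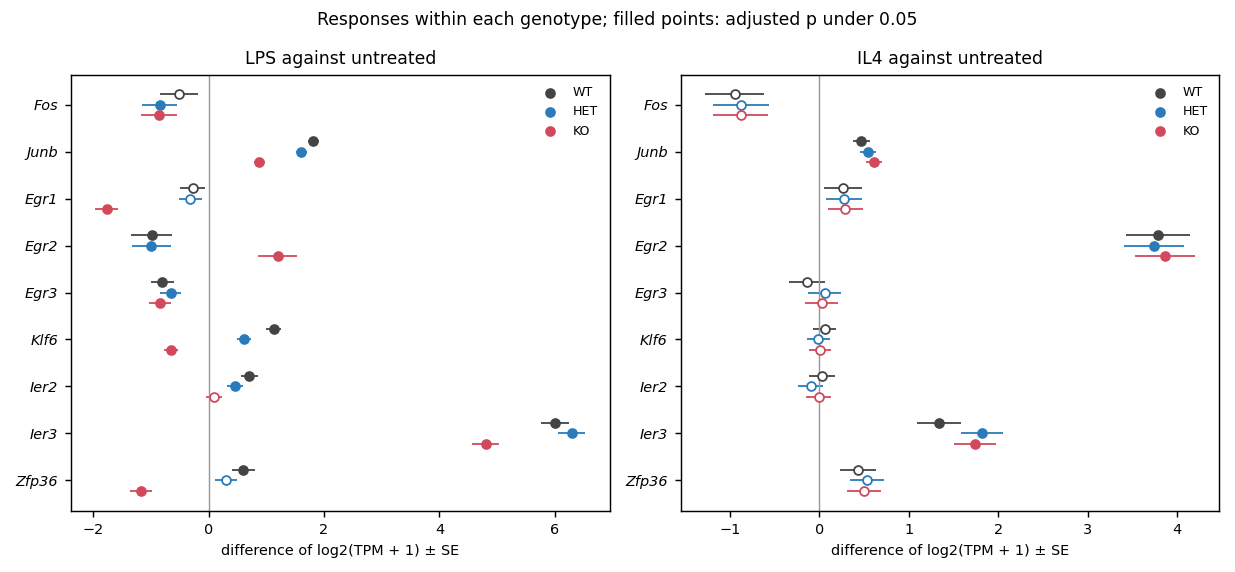
Differences of log2(TPM + 1) ± SE (x axis) between LPS and untreated libraries (left) and between IL4 and untreated libraries (right) for the 9 members tested, in WT, HET and KO; filled points have an adjusted p under 0.05. Under LPS the KO point of Egr2 lies at 1.20 while WT and HET lie at -0.99, and the KO points of Klf6 and Zfp36 are negative, while under IL4 the 3 genotypes lie close together.

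In KO cultures LPS left another state. Egr2 was raised (1.20 ± 0.34, adjusted p = 0.002), and Egr1, Klf6 and Zfp36 were below their untreated levels. The KO libraries of Egr2 overlapped, at 1.51 to 8.91 TPM untreated and 2.55 to 25.1 with LPS, and the rise was not called when only the groups compared were fitted (adjusted p = 0.0796). Ier3 and Junb still rose, by 4.80 ± 0.23 and 0.88 ± 0.09. Ier2 did not pass (0.09 ± 0.14, adjusted p = 0.557). Of the 9 tested, 3 were higher and 5 lower than untreated, Egr3 among the latter, with 69.6% of all genes called (13.1% higher and 56.5% lower). Without Egr3 the lower members are Fos, Egr1, Klf6 and Zfp36. Fos fell by 0.86 ± 0.31 and Egr3 by 0.85 ± 0.19. The fall of Egr3 is again not counted as support. The KO fall of Fos was not called without KO LPS replicate 5 (adjusted p = 0.0555) or under either other scaling. The fall of Klf6 was not called under median-of-ratios scaling (-0.12, adjusted p = 0.564), while Ier2 was called higher under both other scalings, at 0.61 and 0.45. The falls of Egr1 (-1.77 ± 0.20) and Zfp36 (-1.17 ± 0.19) were called under each scaling, with Zfp36 at -0.65 by median of ratios.

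Against WT under LPS, 6 of the 9 members were lower in KO and 1 was higher, where 27.6% of all genes were called (14.4% higher and 13.2% lower). Against HET the count was again 6 lower and 1 higher, with 24.0% of all genes called (12.5% higher and 11.5% lower). The medians of the members were -0.80 against WT and 0.01 for all genes. No member was called in HET against WT under LPS, where 0.0126% of all genes were called, and 1 member (Klf6, -0.35 ± 0.13) passed an unadjusted p of 0.05. KO libraries did not overlap WT libraries for 5 members that were lower (8.61% of all genes) and 1 that was higher (7.56%), and the same numbers held against HET libraries (6.89% and 6.50%). The other 2 scalings gave the same counts of calls.

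Zfp36, the mRNA-destabilizing protein, had the most negative log2 difference of the 9 members between KO and WT, and between KO and HET, within LPS. Its TPM under LPS was 52.9, 25.7, 34.2, 26.1 and 31.2 in KO, against 111, 130, 122, 88.6 and 145 in WT and 95.4, 113, 72.2, 57.5 and 166 in HET. The highest KO library was below the lowest HET library, and KO was lower than WT by -1.81 ± 0.19 (adjusted p = 6.18e-10) and than HET by -1.49 ± 0.19 (adjusted p = 6.12e-08). Klf6 was at 97.5, 68.5, 77.6, 87.1 and 82.8 TPM in KO, against 218 to 291 in WT and 132 to 276 in HET. The 5 KO values lay in a narrow band under all other LPS libraries (KO against WT -1.62 ± 0.13, adjusted p = 2.92e-13; KO against HET -1.27 ± 0.13).

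Egr1, an early factor downstream of the ERK pathway, was at 5.91, 4.33, 6.27, 4.68 and 4.36 TPM in KO under LPS. In HET the values were 25.1, 9.69, 15.2, 13.8 and 14.2, and WT gave a like spread, so that the lowest WT or HET library was above the highest of KO. The difference was -1.44 ± 0.20 against WT (adjusted p = 2.19e-07) and -1.39 ± 0.20 against HET. Ier3 was at 312, 231, 324, 261 and 495 TPM in KO, below the lowest WT library at 541 (-1.43 ± 0.23, adjusted p = 5.75e-06) and the lowest HET library at 645 (-1.41 ± 0.23). It was still above every untreated library, where it did not exceed 15.6 TPM in any genotype. Junb was at 192, 143, 168, 184 and 192 TPM in KO, again without overlap (-0.80 ± 0.09 against WT and -0.70 ± 0.09 against HET). Ier2 was lower by a smaller amount, at 22.9 to 35.0 TPM in KO and 33.1 to 53.9 in WT, and the libraries overlapped (-0.54 ± 0.14, adjusted p = 0.00209). Against HET, Ier2 differed by -0.43 ± 0.14 (adjusted p = 0.0183), a call that was lost without HET LPS replicate 1 (adjusted p = 0.0921) or without KO LPS replicate 3 (adjusted p = 0.0695). Fos (-0.42 ± 0.31) and Egr3 (-0.14 ± 0.19) were not called between KO and WT, with 95% intervals from -1.05 to 0.21 and from -0.52 to 0.24.

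Egr2 was the 1 member of the 9 tested that was called higher in KO under LPS. Its 5 KO libraries were at 2.55, 9.89, 5.57, 25.1 and 22.1 TPM, against 0.676 to 1.44 in WT and 0.772 to 1.70 in HET. All 5 KO values exceeded all 10 others, although they spanned a wide range among themselves, and the means of 13.0 ± 10.0 and 1.01 ± 0.299 differed 12.9-fold. The difference was 2.45 ± 0.34 against WT (adjusted p = 2.22e-07, 95% interval 1.77 to 3.13) and 2.32 ± 0.34 against HET (adjusted p = 9.29e-07). Without KO LPS replicate 1, the lowest, the difference of Egr2 from WT was 2.85. Over the fits that left out each library in turn it lay between 2.13 and 2.85. Egr2 shares 1712 of its 7720 bases with the long noncoding gene Gm32255, whose highest value in any library was 0.161 TPM.

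The ratio of Egr2 to Egr1, closely related factors that bind the same DNA element, showed how far this pair moved apart. Its median was 0.159 in untreated WT, 0.0607 in WT with LPS and 2.25 in WT with IL4. In KO with LPS the median was 2.28, with a range from 0.431 to 5.36, which overlapped the WT IL4 range of 1.70 to 3.39 and no WT or HET library under LPS. The levels differed, however: Egr2 in KO with LPS reached 25.1 TPM at most and in IL4 libraries of any genotype 40.1 TPM at least.

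**Figure D3:**
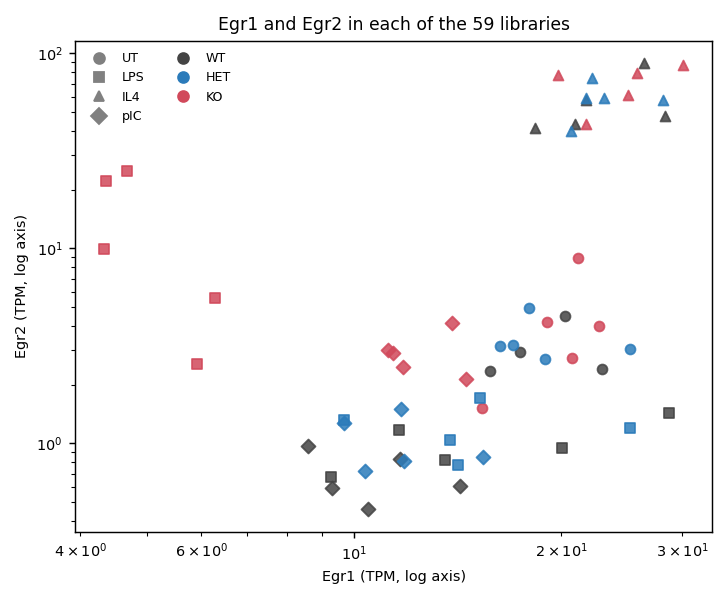
Egr2 against Egr1 in each of the 59 libraries (TPM, both axes logarithmic), with the treatment as the symbol and the genotype as the colour. The 5 KO LPS libraries (red squares) hold the lowest Egr1 values, 4.33 to 6.27 TPM, with Egr2 above all other LPS libraries, and the IL4 libraries (triangles) hold the highest Egr2 values.

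Some genes listed as markers of other myeloid cells were also higher in the KO LPS group. The summed TPM of 6 markers of monocytes and border macrophages was 789 to 1333 in KO, 85.4 to 199 in WT and 81.1 to 628 in HET under LPS. The platelet factor gene Pf4 made up nearly all of it (762 to 1301 TPM in KO). Mrc1, a marker of border macrophages, was at 2.89 to 11.9 TPM in KO, 0.800 to 1.80 in WT and 0.945 to 4.96 in HET, while the defining markers Ccr2, Lyve1 and Cd163 were at or below 0.472 TPM in every LPS library of the 3 genotypes. Ly6c2, a gene of inflammatory monocytes, was at 24.1, 23.3, 19.5, 10.8 and 4.10 TPM in KO replicates 1 to 5 and at or below 2.63 in WT and HET. Of the 6 markers 4 were tested, and 3 were called higher in KO than in WT (14.4% of all genes), with a median difference of 2.36 beside 0.01 for all genes. Of 8 markers each of astrocytes, the oligodendrocyte lineage and neurons, 0 were called in that comparison. Of 5 vascular and stromal markers tested, 1 was higher and 1 lower. The 8 microglia markers summed to 2397 to 4155 TPM in KO under LPS, 2108 to 2885 in WT and 2441 to 2774 in HET. Of these 8, 4 were called higher in KO than in WT and 0 lower, with a median difference of 0.64. Against HET, 4 were again higher and 0 lower (all genes 12.5% and 11.5%). Whether the mix of cells differed, and its part in the members' differences, was not tested.

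Whether LPS acted differently by genotype was tested as the difference of the responses. The response of KO minus that of WT was called for 7 of the 9 members, 1 higher and 6 lower (all genes 16.4%, 9.36% higher and 7.03% lower). KO minus HET was called for 6, 1 higher and 5 lower (all genes 13.8%, 7.69% higher and 6.15% lower). Egr2 differed by 2.19 ± 0.49 against WT and 2.19 ± 0.48 against HET. In the main fit it fell in WT and HET and rose in KO, but neither direction was called in every alternative fit. Klf6 differed by -1.78 ± 0.18 and -1.26 ± 0.18, Zfp36 by -1.77 ± 0.28 and -1.48 ± 0.27, and Egr1 by -1.49 ± 0.29 and -1.45 ± 0.28, in the same order. Ier3 differed by -1.20 ± 0.34 and -1.49 ± 0.33, and Junb by -0.93 ± 0.13 and -0.73 ± 0.13. For Ier2 the difference from WT was called (-0.61 ± 0.20, adjusted p = 0.0315) and that from HET was not (-0.36 ± 0.20, adjusted p = 0.267). The Ier2 call was lost in 6 of 19 fits that left out a library (WT LPS 1 or 3, untreated WT 3, untreated KO 1, KO LPS 2 or 3), with adjusted p up to 0.0728. With median-of-ratios scaling the share of all calls that were higher moved from 57.1% to 40.8% for KO minus WT and from 55.6% to 44.7% for KO minus HET, while the same numbers of members were called in each direction.

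**Figure D4:**
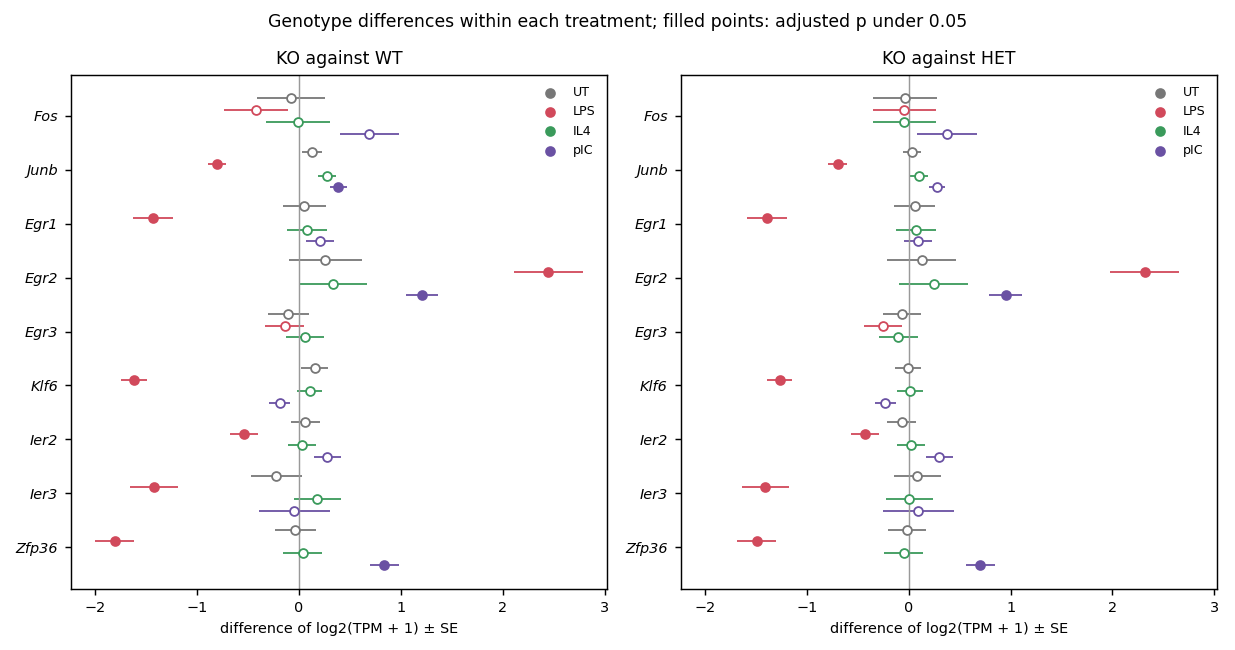
Differences of log2(TPM + 1) ± SE (x axis) of KO against WT (left) and KO against HET (right) for the 9 members tested, within untreated, LPS, IL4 and pIC libraries; filled points have an adjusted p under 0.05, and Egr3 has no pIC point. Under LPS 6 members lie left of 0 and Egr2 lies right of it, under pIC Egr2 and Zfp36 lie right of 0 in both panels, and no untreated or IL4 point is filled.

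IL4 gave a narrow response in which Egr2 led. In WT, Egr2 went from 2.35 to 4.51 TPM untreated to 48.0, 89.3, 43.7, 41.2 and 57.4, an 18.3-fold difference of means (3.79 ± 0.36, adjusted p = 2.60e-10). HET reached 58.2 ± 12.3 TPM (3.74 ± 0.34) and KO 69.9 ± 17.6 (3.86 ± 0.34), and no IL4 library overlapped an untreated one. The KO IL4 values were 87.4, 79.8, 61.3, 43.4 and 77.4 TPM. Ier3 rose in WT from 9.79 to 15.6 TPM to 46.8, 38.3, 31.6, 30.3 and 20.2 (1.34 ± 0.25, adjusted p = 0.00025), and in HET (1.82 ± 0.23) and KO (1.74 ± 0.23), to levels far under those with LPS. Junb rose in each genotype, by 0.47 ± 0.09, 0.54 ± 0.09 and 0.61 ± 0.09. These 3 were the members called in every genotype, where 6.31% of all genes were called in WT (3.68% higher and 2.63% lower), 7.05% in HET (3.97% higher and 3.09% lower) and 8.41% in KO (5.38% higher and 3.03% lower). After scaling by median of ratios, the share of calls that were higher moved from 58.3% to 75.7% in WT and from 56.2% to 66.3% in HET.

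Zfp36 was at 106 ± 22.1, 112 ± 18.8 and 108 ± 12.8 TPM with IL4 in WT, HET and KO, and its differences of 0.43 ± 0.20, 0.53 ± 0.19 and 0.50 ± 0.19 were not called (adjusted p = 0.232, 0.0865 and 0.102). Fos was at 26.0 ± 9.94, 28.5 ± 15.6 and 25.2 ± 8.26 TPM, and its differences of -0.95 ± 0.33, -0.88 ± 0.31 and -0.88 ± 0.31 were not called (adjusted p = 0.0806, 0.0865 and 0.0738). With the replicate number as a block, which pairs the cultures of WT and of KO, the fall of Fos was called in WT (-0.79, adjusted p = 0.0491) and KO (-0.88, adjusted p = 0.0109). The KO fall of Fos was also called after quantile normalization (-0.90) or scaling by median of ratios (-0.84), when only the groups compared were fitted (adjusted p = 0.0445), and without IL4-treated KO replicate 3 (-1.01, adjusted p = 0.0498). In HET it was called under quantile normalization (adjusted p = 0.0485) and without IL4-treated HET replicate 1 or 3 or untreated HET replicate 5, with adjusted p of 0.0260, 0.0353 and 0.0249. Egr1, Egr3, Klf6 and Ier2 were not called in any genotype, with differences between -0.14 and 0.29. The Egr1 interval in WT ran from -0.16 to 0.68 and that of Klf6 from -0.21 to 0.32.

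Genotype left no called mark on the members under IL4. KO against WT called 0 of 9 (0.0440% of all genes, 0.0251% higher and 0.0189% lower), KO against HET 0 (0.00629%) and HET against WT 0 (0.0126%). At an unadjusted p under 0.05, 1 member passed in KO against WT (Junb, 0.27 ± 0.09, adjusted p = 1). The IL4 responses of KO and WT, and of KO and HET, differed for 0 members and 0% of all genes, and 0 members passed an unadjusted p of 0.05. For Egr2 the IL4 response of KO minus WT was 0.07 ± 0.49, with a 95% interval from -0.92 to 1.07. The LPS value was 2.19 ± 0.49, and the LPS and IL4 values were not tested against each other.

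In the pIC libraries Junb and Zfp36 were called higher in KO than in WT, as was Egr2, and no member was called lower. Egr2 entered this table's test mainly through KO: it reached 1 TPM in 5 KO, 2 HET and 0 WT libraries, so its call is not counted as support. Egr2 was at 2.14, 2.91, 2.48, 3.01 and 4.14 TPM in KO, 0.606, 0.590, 0.459, 0.965 and 0.835 in WT and 0.725 to 1.49 in HET. The KO libraries lay above all others at low levels (1.21 ± 0.16 against WT, adjusted p = 0.000311; 0.95 ± 0.16 against HET, adjusted p = 0.00332). Zfp36 was at 165, 96.1, 148, 113 and 126 TPM in KO, 63.1 to 92.5 in WT and 68.4 to 98.8 in HET. Its lowest KO library was above all WT libraries and below the highest HET library (0.84 ± 0.14 against WT, adjusted p = 0.00173; 0.70 ± 0.14 against HET, adjusted p = 0.0103). Junb was at 364, 303, 344, 316 and 328 TPM in KO and 302, 250, 257, 228 and 233 in WT (0.39 ± 0.08, adjusted p = 0.00629). Against HET it missed the threshold (0.28 ± 0.08, adjusted p = 0.0545), and without KO pIC replicate 2 Junb was called (0.31, adjusted p = 0.0474).

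With Egr2, 3 of the 8 members tested were called higher in KO than in WT under pIC, where 11.5% of all genes were called (3.40% higher and 8.11% lower), and 2 against HET, where 5.24% were called (1.65% higher and 3.60% lower). KO libraries lay above all WT libraries for 3 members (2.64% of all genes) and above all HET libraries for 2 (1.98%). Egr2, which is not counted as support, is in each of these counts. Without it the calls are Junb and Zfp36 against WT and Zfp36 against HET. The members without overlap are then Junb and Zfp36 against WT and Junb against HET. With median-of-ratios scaling the share of all calls that were higher moved from 29.5% to 60.6% against WT and from 31.4% to 57.2% against HET, and to 53.8% and 50.0% with quantile normalization. The calls of Junb and Zfp36 against WT were made under both scalings, as was that of Egr2. Junb was called against HET under median-of-ratios scaling (0.35, adjusted p = 0.0438). HET against WT called 0 of 8 members and 0% of all genes, with 0 members at an unadjusted p under 0.05. Fos was at 57.5 ± 34.8 TPM in KO and 31.8 ± 5.80 in WT (0.69 ± 0.29, adjusted p = 0.136). KO replicate 4 was at 118 TPM, and without it the KO mean of Fos was 42.3 TPM and the difference 0.39. Egr1 was at 12.6 ± 1.54 TPM in KO and 10.9 ± 2.24 in WT (0.21 ± 0.14, not called). The Klf6 difference was -0.19 ± 0.10, with an interval from -0.41 to 0.03. Microglia markers summed to 6361 to 9401 TPM in KO pIC libraries, 4994 to 6280 in WT and 5312 to 7203 in HET. Of the 8 microglia markers, 3 were called higher in KO than in WT (3.40% of all genes) and 1 than in HET (1.65%), with 0 lower. Ly6c2 was at 5.65 to 15.0 TPM in KO, 2.19 to 9.41 in WT and 3.31 to 22.6 in HET. HET thus overlapped KO in both the microglia sum and Ly6c2, while WT overlapped KO in Ly6c2 and not in the microglia sum. Their part in the differences was not tested.

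Of the other immediate early genes 35 were listed beyond the 10, and 32 were tested. With LPS in WT 14 rose and 12 fell (median 0.25, beside -0.59 for all genes), led by Phlda1 (3.50 ± 0.25), the stress gene Gadd45b (3.43 ± 0.23), the AP-1 subunit Fosl1 (3.12 ± 0.25) and the small Maf factor Maff (2.79 ± 0.18). Among all genes 13.9% rose and 61.9% fell in WT. In KO with LPS 9 of the list rose and 16 fell, a share of falls near that of all genes (13.1% higher and 56.5% lower). The balance depends on the scaling: by median of ratios 18 rose and 6 fell in WT and 13 rose and 8 fell in KO, and after quantile normalization 17 and 6, and 13 and 8. KO against WT under LPS had 6 higher and 13 lower (median -0.31), a balance that kept under both other scalings (6 and 13, and 5 and 12). In this comparison 14.4% of all genes were higher and 13.2% lower. Dusp1, the phosphatase that switches off p38 and JNK, was at 18.2 TPM in KO and 89.8 in WT (-2.24 ± 0.24), the stress factor Atf3 differed by -1.39 ± 0.27 and Csrnp1 by -1.38 ± 0.20. Zfp36l2, a relative of Zfp36 that also binds AU-rich mRNAs, went the other way, at 70.3 TPM in KO and 21.9 in WT (1.64 ± 0.09). Against HET the list had 7 higher and 12 lower (all genes 12.5% and 11.5%), with Dusp1 at -1.43 ± 0.24 and Zfp36l2 at 1.47 ± 0.09. IL4 raised 7 and lowered 0 in WT, with Klf4 at 1.96 ± 0.25 and Nfil3 at 1.87 ± 0.16, both also raised in KO (2.04 ± 0.23 and 2.02 ± 0.15), where 11 rose and 1 fell. The shares of all genes were 3.68% higher and 2.63% lower in WT and 5.38% and 3.03% in KO. Under pIC, KO had 4 higher and 2 lower than WT of 31 tested, among them Trib1 (0.73 ± 0.16) and Klf4 (-1.37 ± 0.35), and 6 and 1 by median of ratios. There 3.40% of all genes were higher and 8.11% lower before that scaling.

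Of 13 upstream genes, the serum response and CREB factors and Egr co-repressors, 3 rose and 7 fell with LPS in WT, where 75.8% of all genes were called and 61.9% were lower, with Nab1, a co-repressor of Egr factors, at 1.33 ± 0.08. This direction flips with the scaling: by median of ratios 9 rose and 0 fell, and after quantile normalization 7 and 0. In KO against WT under LPS 1 was higher (the serum response co-activator Mrtfa, 0.54 ± 0.10) and 2 lower (Nab1, -0.51 ± 0.07, and the CREB co-activator Crtc2, -0.20 ± 0.07). The shares of all genes were 14.4% and 13.2%. Nab2, the other Egr co-repressor, was the member of that list called in KO against WT under pIC (11.5% of all genes), at 0.52 ± 0.07. Of 19 MAP kinase genes 3 rose and 11 fell with LPS in WT, again a share of calls near that of all genes (75.8%). This direction flips too, to 14 and 2 by median of ratios and 6 and 5 after quantile normalization. The 3 that rose were the ERK activators Map2k1 (1.69 ± 0.09) and Map3k8 (1.58 ± 0.14) and the p38 effector Mapkapk2 (1.53 ± 0.09). KO against WT under LPS had 4 of the 19 higher and 5 lower (all genes 14.4% and 13.2%), with Map2k1 at -0.77 ± 0.08, the JNK gene Mapk8 at -0.69 ± 0.17 and the p38 gene Mapk14 at 0.71 ± 0.08. These are transcript levels and say nothing of kinase activity.

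The 8 listed mRNAs known as targets of Zfp36 all rose with LPS in each genotype, with a median of 6.34 in WT and 4.48 in KO. The share of all genes that rose was 13.9% in WT, 14.3% in HET and 13.1% in KO. In KO against WT under LPS, where Zfp36 itself was lower, 5 of them were lower and 1 higher (5 and 0 under both other scalings). Among all genes 13.2% were lower and 14.4% higher. Whether Zfp36 had a part in the differences of these mRNAs was not tested. Ptgs2, the inducible cyclooxygenase, was at 216 TPM in KO and 1876 in WT (-3.18 ± 0.36), Il10 at 2.42 and 22.7 (-3.07 ± 0.26), the chemokine Ccl3 at 2633 and 9452 (-2.02 ± 0.28) and Tnf at 285 and 839 (-1.65 ± 0.23). Under pIC, where Zfp36 was higher in KO, 1 of 5 tested targets was called (11.5% of all genes), Tnf at 456 TPM in KO and 273 in WT (0.71 ± 0.18). With IL4, 0 of 8 were called in any genotype by limma, and 2, 3 and 2 passed an unadjusted p of 0.05 in WT, HET and KO. The calls over all genes were 6.31%, 7.05% and 8.41%.

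The members did not share 1 pattern over the 44 UT, LPS and IL4 libraries. Pearson's r between their log2 values, given as a description over libraries that share cultures and treatments, was 0.95 for Ier3 and Junb and 0.71 for Egr1 and Zfp36, and -0.49 for Egr2 and Ier2. The genes most like each member differed as well. For Egr2 they were Arhgap6 (r = 0.96), Anxa4 (0.96) and Ifi30 (0.95), for Egr1 Tnfrsf11a (0.90), Plekhm1 (0.88) and Tet3 (0.86), and for Ier3 Glrx (0.99), Zc3h12a (0.98) and Cd274 (0.98). For Zfp36 they were Gna13 (0.91), C3ar1 (0.89) and Zfand5 (0.85), for Klf6 Mafk (0.91), Col4a3bp (0.89) and Nsd3 (0.89), and for Junb Tes (0.97), Sertad1 (0.97) and Cd40 (0.97). Fos was most like Fbxl4 (0.83), Prkce (0.81) and the immediate early gene Nr4a1 (0.81).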

How the data were processed

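The authors deposited TPM per gene in 2 tables, per the file headers; DRAGEN, Picard, Trimmomatic, FastQC and the build mm10 appear in the submitters' processing notes without versions or order. The labels' protocols give an input of 300 ng RNA and selection of mRNA. TPM keeps no depth, and a rise of abundant genes lowers all others. No source used here gives the strand setting of the counting. Columns were matched to samples by the labels, with 0 value columns left over. No libraries were identical.

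Genes reaching 1 TPM in 4 or more libraries of their table (15908 and 13919) were tested with limma 3.58.1 in R 4.3.3 (lmFit, eBayes with trend) on log2(TPM + 1), with group means as coefficients and 1 spread for each table. The 22 comparisons and their alternatives (pseudocount 0.1, no filter, a filter of 5 TPM, median-of-ratios scaling, quantile normalization, only the groups compared, replicate block, each library left out) were run across all genes, with Benjamini-Hochberg adjustment. The procedure was tested on simulated data. The replicate numbers, which come from the labels, were checked by correlating deviations from group means: every same-numbered pair was above 0.1 for LPS and IL4 against UT in WT (lowest 0.117 and 0.191) and KO (0.130 and 0.173) and for HET against WT untreated (0.121), and not in the other comparisons. Named were all members, up to 4 called genes of a list by size (5 TPM or more in the group with more), and the 3 genes most correlated with a member. Members and lists were chosen with earlier results of these data known. Promoters are from RefSeq (GRCm38.p6). Untreated WT replicate 5 was not analysed here. One member's sequence and position are not reported here.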

Additional observations from a re-analysis of the deposited data

Results flagged for a closer look

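Of 120 groups of a member's values, 7 held a library far from the rest of its group, where chance would give about 6. Fos was at 118 TPM in KO pIC replicate 4 against 30.3 to 52.2 in the other libraries of that group. Fosb was at 0.477 TPM in KO pIC replicate 2 against 0.035 to 0.107. Egr2 was at 4.93 TPM in untreated HET replicate 5 against 2.72 to 3.19. Egr3 was at 2.61 TPM in untreated HET replicate 4 against 0.852 to 1.31, and at 0.706 in untreated KO replicate 4 against 1.33 to 1.47. Ier2 was at 19.3 TPM in IL4-treated HET replicate 5 against 25.8 to 28.3. Zfp36 was at 92.5 TPM in WT pIC replicate 1 against 63.1 to 70.0.

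The LPS response differed between genotypes by the test of the difference itself for 7 members against WT and 6 against HET. KO minus WT was 2.19 for Egr2, -1.49 for Egr1, -0.61 for Ier2, -1.20 for Ier3, -0.93 for Junb, -1.78 for Klf6 and -1.77 for Zfp36. KO minus HET was 2.19 for Egr2, -1.45 for Egr1, -1.49 for Ier3, -0.73 for Junb, -1.26 for Klf6 and -1.48 for Zfp36.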

How the results depend on the processing

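The number of members called kept within 1.5 times of its reported value in 406 alternative fits and not in 2. Those 2 were IL4 against UT, with 5 members called in HET under quantile normalization and 5 in KO when only the groups compared were fitted, against 3 in each. Leaving out a library gave 6 to 8 members called for LPS in WT and in HET, 7 to 8 in KO, 7 for KO against WT under LPS, 6 to 7 for KO against HET, 6 to 7 for the response of KO minus WT and 2 to 3 for KO against HET under pIC. Of the single values of members, 3549 alternatives kept the side of the threshold, 25 gained a call and 25 lost one. The sign changed in 247, and in 0 of these was the value called before or after. Apart from those given beside the results, Fos with LPS in WT was called when only the groups compared were fitted (adjusted p = 0.0291), and Ier2 was not called for KO against HET under LPS there (adjusted p = 0.0711) or for the response of KO minus WT without a filter (adjusted p = 0.0583). Zfp36 with IL4 was called in HET under quantile normalization (adjusted p = 0.0325) and in KO when only the groups compared were fitted (adjusted p = 0.00266), and Junb for KO against HET under pIC with a filter of 5 TPM (adjusted p = 0.0451). With the replicate block, Fos fell with IL4 in HET too (-0.88, adjusted p = 0.0119) and Junb was called for KO against HET under pIC (adjusted p = 0.0112), in comparisons whose same-numbered libraries did not all deviate together; beyond these and Fos with IL4 in WT and KO the block changed no other member's call. Over all genes the block raised the calls for IL4 from 1004 to 1655 in WT, from 1122 to 2467 in HET and from 1338 to 2535 in KO, those for the LPS response of KO minus HET from 2201 to 3342 and those for KO against HET under pIC from 730 to 1211. Fitting only the groups compared gave 2475 calls against 3812 for KO against HET under LPS, 978 against 1602 for KO against WT under pIC and 356 against 730 for KO against HET under pIC. Leaving out a library gave 402 to 710 calls for the last of these and 1046 to 1776 for KO against WT under pIC. On leaving out a library, comparisons with 7 or fewer calls over all genes moved by a few calls, except HET against WT under LPS, with 1 to 64. Without a filter, HET against WT went from 2 to 11 calls untreated and from 2 to 9 under LPS. KO against WT untreated went from 5 to 10. For KO against WT under IL4 the 7 calls became 11 with the block and 2 when only the groups compared were fitted. The depth of the libraries is unknown, so the precision of Fosb, Egr3 and Egr2 at low TPM cannot be given from counts.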
